A study of Nicotiana tabacum with 60 samples.

Results

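*rps4*, the chloroplast gene for ribosomal protein S4, is 1 of 78 chloroplast reading frames counted by ribosome profiling (Ribo-seq) and RNA-seq in tobacco (*Nicotiana tabacum*). It was followed across 10 lines, each with 3 Ribo-seq and 3 RNA-seq libraries, 60 in all. The gene was selected on its RNA, which was higher, and its translation efficiency (footprints over RNA), which was lower, in several mutants. Those changes are therefore given as descriptions, with a standard error (SE) and with no test. The question of the design was whether the loss of one subunit of a photosynthetic complex alters the expression of other chloroplast genes.

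Of the 7 mutants, 5 were set against pRB8c, a transplastomic control line that carries the *aadA* marker gene, as the insertion mutants do. Δ3’-*psbD* lacks the 3’ part of *psbD* together with the beginning of *psbC* (both photosystem II core), and Δ*psbJ* lacks a small photosystem II subunit. Δ*petB/D* and Δ*petN* lack subunits of the cytochrome *b*6*f* complex, and the insertion in Δ*petB/D* also affects the photosystem II genes *psbB*, *psbT*, *psbN* and *psbH*. Δ*atpB/E* (labelled delta atpB) lacks 2 subunits of ATP synthase. Δ*psaB* carries a frameshift in a photosystem I core gene and was set against RB70, another *aadA* line. By the study's methods, 1 of its 3 samples is an independent second allele. The as-*ATPC* plants carry a nuclear antisense construct against the γ subunit of ATP synthase and were set against the wild type SNN. By the same methods as-*ATPC* was grown autotrophically, side by side with its control, although the labels of both give the sucrose medium of the other lines. All other lines were raised heterotrophically on sucrose medium in low light, so SNN and as-*ATPC* differ from them in growth as well as in genotype. The labels give Petit Havana for all 10 lines, the wild type SNN included. The 5 comparisons with pRB8c share the same control libraries and are not independent of each other. Per the study's methods the 3 libraries of each kind and line are biological replicates; which plants each library was made from is not in the labels.

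Ribosomal protein S4 belongs to the small subunit of the chloroplast ribosome, which resembles the bacterial one. In *Escherichia coli* S4 binds the 16S rRNA directly and is among the first proteins to join the growing subunit. There it also represses translation of the mRNA that encodes it together with other ribosomal proteins. The chloroplast genome encodes only part of the ribosomal proteins, and the rest are imported from the cytosol. Initiation on many chloroplast mRNAs uses a Shine–Dalgarno sequence, a purine-rich stretch before the start codon that pairs with the 16S rRNA.

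The reading frame of *rps4* is 606 nt long and lies on the minus strand of the chloroplast genome. The counted Ribo-seq window runs from 47553 to 48118 in the coordinates of the deposited tables. Its start was compared with those of *rpoB* and *rpoC2* (RNA polymerase subunits) and *rps14* (small-subunit protein S14), which had the RNA or footprint profiles most like that of *rps4* and are covered by the study's tiling-array probes. Each stretch shows the mRNA sense from 18 bases before the start codon to the 12th base of the reading frame, read from those probes, with the start codon and any GGAG in capitals:
rps4: taagaataaGGAGtctttATGtcgcgttac
rpoB: ataaatgggaaattaaaaATGctcggggat
rpoC2: cggaatatGGAGgtacttATGgcagaacgg
rps14: aataggaattcaaccattATGgcaaggaaa
All 4 lie on the minus strand, with the first base of the start codon at 48148 for *rps4*, 27516 for *rpoB*, 21336 for *rpoC2* and 38886 for *rps14* in the chloroplast genome the reads were mapped to. *rps4* has GGAG 5 bases before its ATG and *rpoC2* has it 6 bases before. The letters GGAG, searched on the mRNA strand in the 20 bases before the start, were found in 7 of the 17 reading frames (41.2%) whose start lies on the probes and begins with ATG. This is a description of the letters and not of a site in use.

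Ribo-seq libraries held 31328 to 5331355 footprints in reading frames, and RNA-seq libraries 1029393 to 14748697 reads. The RB70 and Δ*psaB* libraries were the shallowest of their kind in RNA, with at most 2278698 reads. The first Δ*psaB* Ribo-seq library had the fewest footprints and only 3.35% chloroplast reads, against 15.3% and 17.0% in the other two. The labels were checked on the genes hit by the mutations. In the mutant, relative to its control, footprints were at 54.0% for *psbD*, 1.20% for *psbC*, 1.24% for *psbJ*, 0.487% for *petB*, 4.71% for *petD*, 1.37% for *petN*, 1.96% for *atpB*, 25.4% for *atpE* and 33.3% for *psaB*. Levels are given as CPM, the count of the gene relative to all reading-frame reads of the library, scaled by TMM (trimmed mean of M-values) over the 30 libraries of a kind. On this scale a gene is measured against the other chloroplast genes, and fewer chloroplasts cannot be told apart from less RNA in each.

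*rps4* RNA was lowest in the control line pRB8c, at 288, 406 and 301 scaled CPM. It reached 1319, 893 and 1080 in Δ3’-*psbD*, 896, 1164 and 880 in Δ*psbJ*, and 872, 794 and 942 in Δ*petB/D*. Libraries of Δ*petN* held 797, 861 and 1085, and those of Δ*atpB/E* 1649, 1203 and 891. In each of these mutants all 3 libraries lay above all 3 of pRB8c. The share of the 77 tested genes with such a gap upwards was 33.8% in Δ3’-*psbD*, 50.6% in Δ*psbJ*, 39.0% in Δ*petB/D*, 41.6% in Δ*petN* and 49.4% in Δ*atpB/E*. Δ*psaB* had 1155, 1087 and 754 against 791, 545 and 687 in RB70, and these overlapped. as-*ATPC* had 543, 564 and 563 against 484, 509 and 447 in SNN, a small gap without overlap that 49.4% of the tested genes also showed.

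The order of the line means ran from Δ*atpB/E* (1248 ± 381, SD, n = 3) over Δ3’-*psbD* (1097 ± 213), Δ*psaB* (999 ± 214), Δ*psbJ* (980 ± 159), Δ*petN* (915 ± 151) and Δ*petB/D* (869 ± 74.3) to RB70 (674 ± 123), as-*ATPC* (557 ± 11.7), SNN (480 ± 31.5) and pRB8c (331 ± 64.6). The 6 lines at the top overlapped with their neighbours in this order, and so did RB70 with as-*ATPC*. Gaps without overlap separated Δ*petB/D* from RB70, as-*ATPC* from SNN, and SNN from pRB8c. The 3 pRB8c libraries thus lay below all 27 others. This held for 5 of 77 genes (6.49%) with TMM scaling, the others being *petA*, *rpoC1*, *ycf4* and *ycf10*, and for 22 of 77 with library sizes alone.

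**Figure D1:**
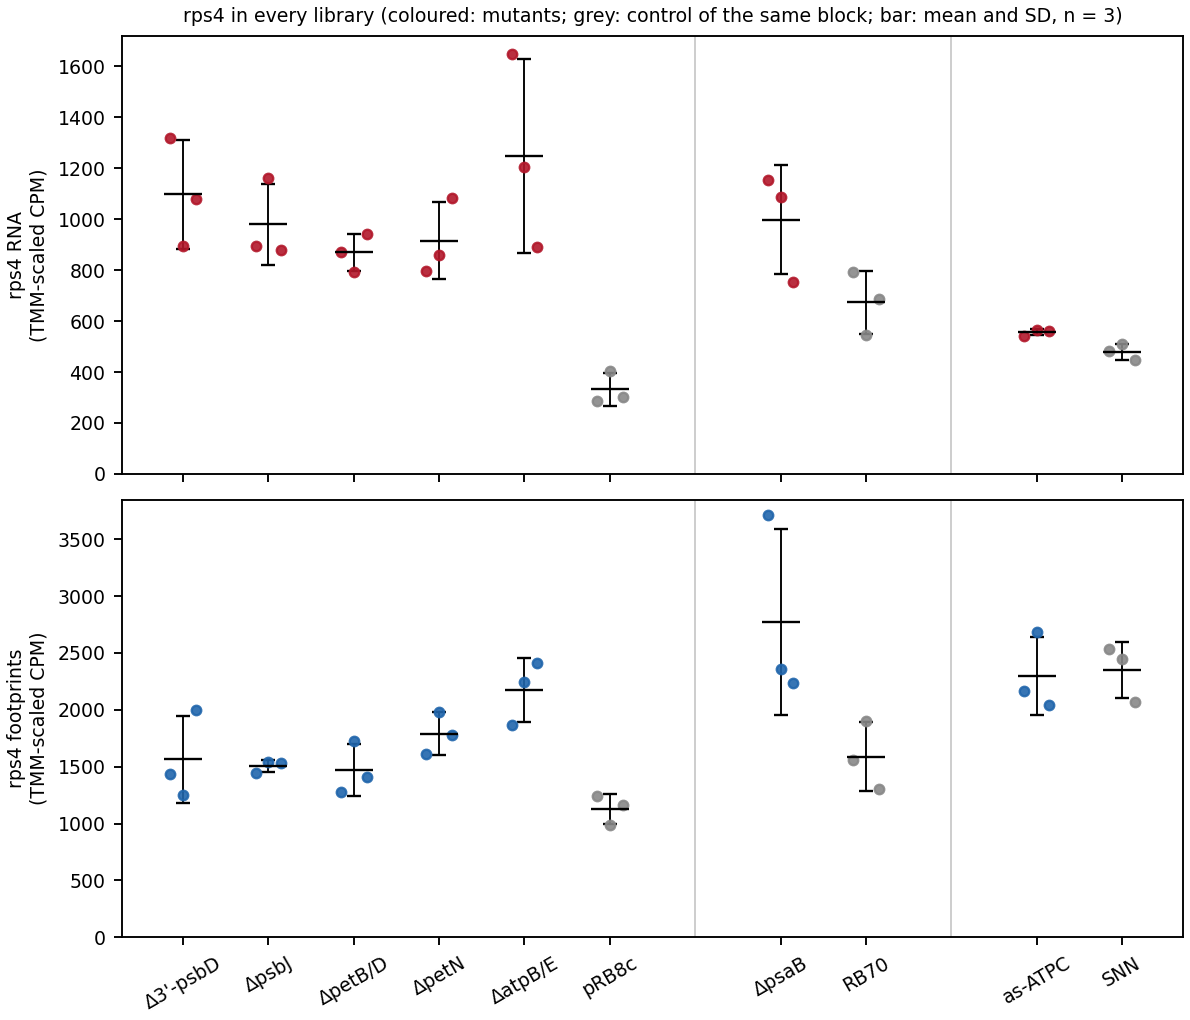
*rps4* RNA (top) and footprints (bottom) in each library, in TMM-scaled CPM, with mutants coloured, the control of each block in grey at its right, and bars for the mean and SD of 3 libraries. The RNA of the 3 pRB8c libraries (288 to 406) lies below that of every other library, whereas its footprints (987 to 1240) are close to the lowest mutant libraries.

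Footprints of *rps4* spanned a narrower range between the mutants and pRB8c than its RNA. They came to 1439, 1254 and 1996 scaled CPM in Δ3’-*psbD*, 1443, 1538 and 1531 in Δ*psbJ*, and 1281, 1722 and 1407 in Δ*petB/D*. Δ*petN* had 1608, 1984 and 1776 and Δ*atpB/E* had 1865, 2242 and 2414, against 1240, 987 and 1162 in pRB8c. The mutant libraries were again all above those of pRB8c, in Δ3’-*psbD* and Δ*petB/D* by little. Such a gap upwards was shown by 36.4% of the tested genes in Δ3’-*psbD*, 28.6% in Δ*psbJ*, 32.5% in Δ*petB/D*, 40.3% in Δ*petN* and 39.0% in Δ*atpB/E*. Δ*psaB* held 3712, 2362 and 2235 against 1562, 1904 and 1299 in RB70, without overlap, a gap that 15.6% of the genes showed. as-*ATPC* (2167, 2687 and 2039) and SNN (2531, 2446 and 2071) overlapped. The raw counts behind these values were lowest in RB70 (272, 397 and 158 footprints), Δ*psaB* (217, 437 and 377) and Δ*atpB/E* (372, 409 and 390). In the order of the line means, from Δ*psaB* (2770 ± 818, SD, n = 3) to pRB8c (1130 ± 130), only the step from Δ*petB/D* to pRB8c was without overlap.

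The ratio of mean footprints to mean RNA gives a level of translation efficiency per line, comparable between lines but not between genes. It was 1.42 in Δ3’-*psbD*, 1.53 in Δ*psbJ*, 1.69 in Δ*petB/D*, 1.74 in Δ*atpB/E* and 1.96 in Δ*petN*, against 3.41 in pRB8c. It was 2.77 in Δ*psaB* against 2.36 in RB70, and 4.13 in as-*ATPC* against 4.89 in SNN. The 5 mutants set against pRB8c thus had the lowest ratios of the 10 lines. With library sizes alone RB70 (1.87) came among them and Δ*psaB* (4.18) had the highest ratio of all.

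Fitted within each comparison by edgeR, *rps4* RNA was 4.13-fold higher in Δ3’-*psbD* than in pRB8c (log2 fold change 2.05, SE 0.23), and its footprints were 1.30-fold higher (0.38, SE 0.21). The translation efficiency was thereby 3.17-fold lower (log2 fold change −1.66, SE 0.30). Δ*petB/D* followed the same pattern, with RNA 3.09-fold higher (1.63, SE 0.17), footprints 1.23-fold higher (0.29, SE 0.17) and efficiency 2.52-fold lower (−1.33, SE 0.25). The differences were smaller in Δ*psbJ*, where RNA was 2.60-fold higher (1.38, SE 0.19), footprints 1.33-fold higher (0.41, SE 0.17) and efficiency 1.95-fold lower (−0.96, SE 0.24). In Δ*petN* RNA was 2.54-fold higher (1.34, SE 0.16), footprints 1.48-fold higher (0.57, SE 0.15) and efficiency 1.72-fold lower (−0.78, SE 0.23). In Δ*atpB/E* RNA was 3.20-fold higher (1.68, SE 0.20) and footprints 2.51-fold higher (1.33, SE 0.19), so that the efficiency was 1.28-fold lower, close to its error (−0.35, SE 0.29). That value depended on the scale, since it was −0.97 with all lines in 1 fit, where Δ*petB/D* had −1.01, and −3.75 relative to the reads mapped to all 3 genomes. On that last scale the median efficiency change over all tested genes in Δ*atpB/E* was −2.92.

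The other mutants did not share the pattern. In Δ*psaB* against RB70 the footprints were 1.95-fold higher (0.96 on the log2 scale, SE 0.31), more than the RNA at 1.43-fold (0.51, SE 0.23), and the efficiency change was 0.45 (SE 0.43). Without the first Δ*psaB* replicate, whose Ribo-seq library was the shallowest, the footprint change was 0.60. Likewise the footprint change in Δ3’-*psbD* was 0.68 without the second library of that mutant. In as-*ATPC* against SNN the log2 changes were 0.17 in RNA (SE 0.11), 0.10 in footprints (SE 0.08) and −0.071 in efficiency (SE 0.12). 

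**Figure D2:**
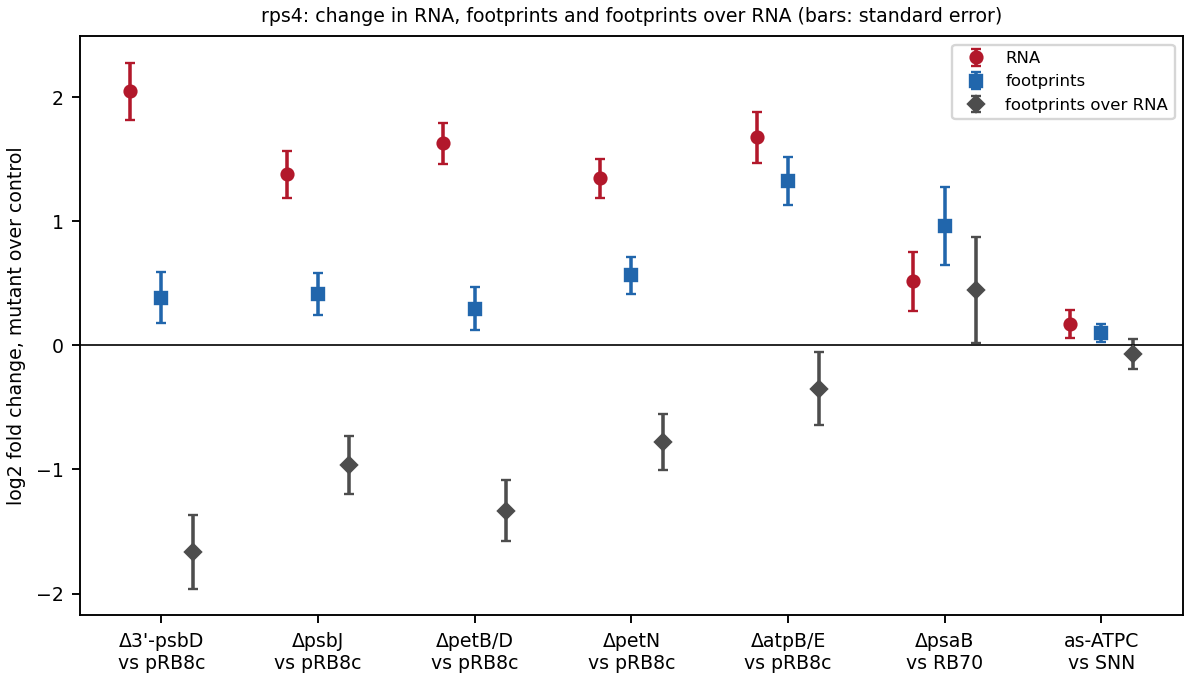
Log2 fold change of *rps4* in RNA (circles), footprints (squares) and footprints over RNA (diamonds), each mutant over its own control, with bars for the SE. In Δ3’-*psbD* and Δ*petB/D* RNA (2.05 and 1.63) is far above footprints (0.38 and 0.29), in Δ*atpB/E* both are high, and in as-*ATPC* all 3 are near 0.

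Among the 77 genes tested, the RNA change of *rps4* ranked 4th from the highest in Δ3’-*psbD*, 2nd in Δ*psbJ*, 5th in Δ*petB/D*, 4th in Δ*petN* and 10th in Δ*atpB/E*. Its efficiency change ranked 74, 66, 73, 62 and 60 in the same mutants. These ranks follow from the choice of the gene and are no support for it. For the rank among genes, CPM by library sizes alone, without TMM, were divided by a length. It was that of the reading frame for RNA and of the counted window for footprints. These values are not comparable with the scaled levels above. *rps4* RNA had rank 47 to 54 of the 78 genes in the 5 mutants, at 1386 to 2541 unscaled CPM per kilobase, and rank 66 in pRB8c, at 346. In footprints it ranked 44 to 55 in those mutants and 55 in pRB8c.

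The 2 transplastomic control lines differed from each other. *rps4* RNA was 1.79-fold higher in RB70 than in pRB8c (log2 fold change 0.84, SE 0.17), its footprints were 1.31-fold higher (0.39, SE 0.20) and its efficiency differed by −0.45 (SE 0.27). RB70 libraries were shallower than those of pRB8c. Their RNA reads in reading frames exceeded or neared their chloroplast-mapped reads, at 1956066 against 1765853, 2278698 against 2385106 and 1826494 against 1670079. In pRB8c they were fewer, at 10630823 against 12351256, 11255677 against 12940021 and 9687266 against 11340591. Δ*psaB* was like RB70, at 1029393 against 902221, 1553724 against 1401701 and 1869026 against 1703810. The part of either in the difference between the control lines was not tested. Set against RB70 instead, the RNA change was 1.26 in Δ3’-*psbD* (SE 0.23), 0.51 in Δ*psbJ* (SE 0.16), 0.50 in Δ*petB/D* (SE 0.17), 0.66 in Δ*petN* (SE 0.16) and 1.43 in Δ*atpB/E* (SE 0.26). The footprint change was 0.18, −0.021, −0.13, 0.051 and 0.85 in the same order. The efficiency stayed lower than in the control in each, at −1.09 (SE 0.35), −0.53 (SE 0.25), −0.63 (SE 0.28), −0.61 (SE 0.28) and −0.59 (SE 0.41). In the reverse case, Δ*psaB* against pRB8c gave 1.59 in RNA (SE 0.26) and −0.33 in efficiency (SE 0.41).

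**Figure D3:**
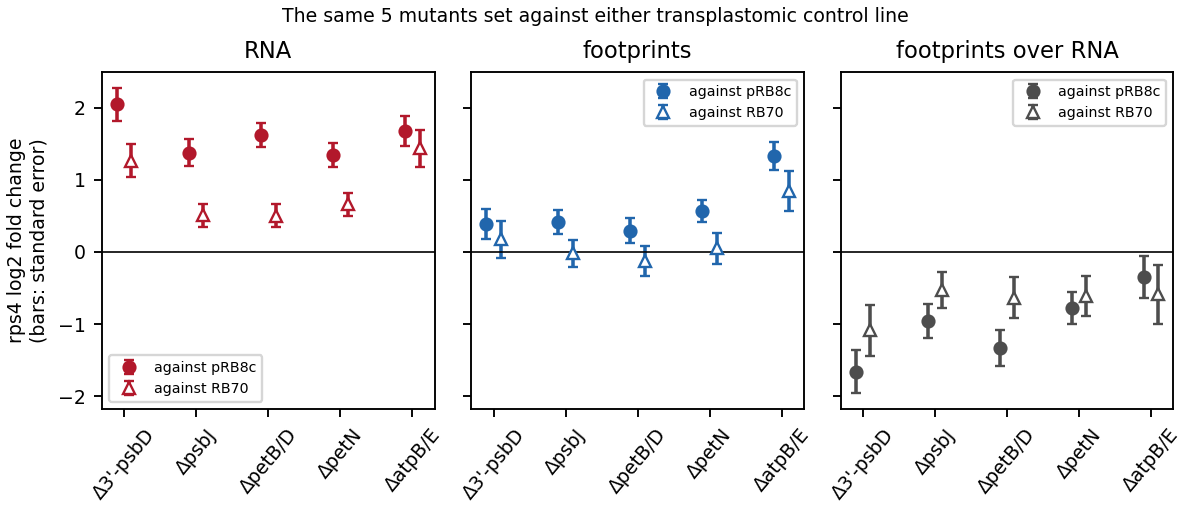
Log2 fold change of *rps4* in the 5 mutants against pRB8c (filled circles) and against RB70 (open triangles), with bars for the SE, in RNA, footprints and footprints over RNA. The RNA changes lie between 0.50 and 1.43 against RB70, and the changes in footprints over RNA lie below 0 against either line.

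In 3 of the 5 mutants the direction in footprints also depended on the scale. Chloroplast reads made up 22.4% to 27.5% of mapped Ribo-seq reads in pRB8c, but 9.10% to 11.3% in Δ3’-*psbD*, 10.3% to 22.5% in Δ*petB/D* and 3.00% to 4.79% in Δ*atpB/E*. Relative to the reads mapped to all 3 genomes, *rps4* footprints were lower than in pRB8c in these lines, by a log2 fold change of −0.81 (SE 0.42), −0.28 (SE 0.29) and −1.73 (SE 0.33). The median over all tested genes moved with it, to −1.05, −0.69 and −2.67. In Δ*psbJ* and Δ*petN* the footprints stayed higher than in pRB8c, at 0.40 and 0.44. *rps4* RNA stayed higher than in pRB8c on that scale in all 5 mutants, at 2.01 to 2.50.

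The other ribosomal protein genes of the small subunit shared the higher RNA in part. A gene was called at an edgeR adjusted p (Benjamini-Hochberg over 77 genes) of 0.01 or less. Of the 11 others, 7 were called higher in RNA in Δ3’-*psbD* (40.3% of all genes), 6 in Δ*psbJ* (33.8%), 6 in Δ*petB/D* (41.6%), 3 in Δ*petN* (26.0%) and 9 in Δ*atpB/E* (41.6%). Called lower were 1, 1, 1, 3 and 1, against 28.6%, 26.0%, 20.8%, 42.9% and 33.8% of all genes. The median log2 fold change of the 11 was 0.64, 0.46, 0.50, 0.27 and 0.91 in these mutants, against 0.35, 0.19, 0.16, −0.060 and 0.15 over all genes, so *rps4* lay above the median of the 11 in each. Like its ranks, that place of *rps4* follows from the choice of the gene. Across the alternative settings the count of higher genes ran from 3 to 10 in Δ3’-*psbD*, 2 to 9 in Δ*psbJ*, 1 to 6 in Δ*petB/D*, 3 to 10 in Δ*petN* and 5 to 10 in Δ*atpB/E*, and against RB70 it was 4, 2, 1, 6 and 5. In Δ3’-*psbD* it was 3 or 4 without any 1 library other than the second of that mutant, and in Δ*petN* it was 7 without the second library of that mutant.

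*rps19* and *rps2*, for the small-subunit proteins S19 and S2, were the members with the largest RNA rises. *rps19* RNA rose 2.83-fold in Δ3’-*psbD* (edgeR adjusted p = 4.75e-09, log2 change 1.50, SE 0.21) and 2.34-fold in Δ*petB/D* (1.23, SE 0.16, adjusted p = 6.28e-08). *rps2* RNA rose 2.28-fold in Δ*psbJ* (1.19, SE 0.19, edgeR adjusted p = 8.12e-09), 2.03-fold in Δ*petN* (1.02, SE 0.13, adjusted p = 1.42e-05) and 3.21-fold in Δ*atpB/E* (1.68, SE 0.22, adjusted p = 9.56e-05). The opposite was seen for *rps14*, which is read from the same transcript as *psaA* and *psaB*. Its RNA fell 2.87-fold in Δ3’-*psbD* (edgeR adjusted p = 1.83e-14, log2 change −1.52, SE 0.14) and was also called lower in the other 4 mutants set against pRB8c. In Δ*petN* the largest fall was that of *rps15*, for S15 (−0.46, SE 0.14, edgeR adjusted p = 0.00799). The control RB70 also differed from pRB8c in the RNA of these genes. It was higher for *rps19* (1.94, SE 0.15, edgeR adjusted p = 1.79e-06), by more than in either mutant named. It was also higher for *rps2* (0.68, SE 0.13, adjusted p = 0.00135) and *rps15* (0.78, SE 0.15, adjusted p = 0.00104). For *rps14* it was lower (−0.62, SE 0.16, adjusted p = 0.00712).

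In footprints, 2 of the 11 others were called higher in Δ3’-*psbD* (11.7% of all genes), 3 in Δ*psbJ* (7.79%), 1 in Δ*petB/D* (13.0%), 6 in Δ*petN* (26.0%) and 10 in Δ*atpB/E* (44.2%), and 0 lower in any of them (13.0%, 6.49%, 18.2%, 22.1% and 23.4% of all genes). The 2 in Δ3’-*psbD* were 0 without the first library of that mutant or any 1 of pRB8c and 10 with library sizes alone, and the 3 in Δ*psbJ* were 0 without the second or the third pRB8c library. At an unadjusted p under 0.05, edgeR had 1 of them lower in Δ3’-*psbD*, 1 in Δ*petB/D* and 0 in the other 3 mutants, and DESeq2 called 1 lower in Δ*petB/D* only. The largest rise was that of *rps18*, for S18, except in Δ*psbJ*, where it was *rps15*. *rps18* footprints rose 3.68-fold in Δ3’-*psbD* (edgeR adjusted p = 0.00434, log2 change 1.88, SE 0.31) and 12.3-fold in Δ*atpB/E* (3.62, SE 0.21, adjusted p = 1.52e-06). On the scale of all mapped reads the count in Δ*atpB/E* was 0 higher and 9 lower.

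In translation efficiency the 11 others went both ways. Called lower were 3 in Δ3’-*psbD* (10.4% of all genes), 1 in Δ*psbJ* (16.9%), 2 in Δ*petB/D* (19.5%), 1 in Δ*petN* (22.1%) and 0 in Δ*atpB/E* (10.4%), where 1 was lower at an unadjusted edgeR p under 0.05 and 1 by DESeq2. Called higher were 1, 3, 1, 4 and 6, against 1.30%, 13.0%, 10.4%, 26.0% and 36.4% of all genes. The 3 lower ones in Δ3’-*psbD* became 0 or 1 without any 1 replicate other than the third of that mutant, 0 with library sizes alone or against RB70, and 6 relative to reads mapped to all 3 genomes, where Δ*atpB/E* had 10 lower and 0 higher. *rps19* fell in Δ3’-*psbD* (edgeR adjusted p = 0.00242, log2 change −1.43, SE 0.24) and in Δ*petB/D* (−1.68, SE 0.23, adjusted p = 0.000185), and *rps2* in Δ*psbJ* (−1.04, SE 0.24, adjusted p = 0.00289) and Δ*petN* (−0.77, SE 0.21, adjusted p = 0.00517). *rps14* rose in Δ3’-*psbD* (1.83, SE 0.42, edgeR adjusted p = 0.00779) and in Δ*atpB/E* (3.32, SE 0.41, adjusted p = 6.15e-06). The control RB70 was also below pRB8c in the efficiency of *rps19* (−1.40, SE 0.23, edgeR adjusted p = 0.00022) and *rps2* (−1.18, SE 0.28, adjusted p = 0.0032). For *rps14* it was at 1.05 (SE 0.38, adjusted p = 0.0287), which was not called. In Δ3’-*psbD* the value of *rps4* (−1.66) lay below those of the 11 others, and in Δ*petB/D* (−1.33) it was between them. A low value of *rps4* follows from its choice.

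In Δ*psaB* only *rps18* was called among the 11, with RNA 3.65-fold higher than in RB70 (edgeR adjusted p = 0.00889, log2 change 1.87, SE 0.33). The call was lost when any library but the first Δ*psaB* library was left out. Of all genes, 2.60% were called higher and 6.49% lower in RNA there, 0.00% either way in footprints (16 genes higher and 11 lower at an unadjusted edgeR p under 0.05, 3 of the higher ones being small-subunit genes), and 0.00% higher and 1.30% lower in efficiency. In as-*ATPC* 9 of the 11 were called higher in RNA (39.0% of all genes) and 1 lower (24.7%), although *rps4* differed little. There *rps19* RNA rose 2.06-fold (1.04, SE 0.14, edgeR adjusted p = 1.69e-08), and the efficiency of 5 of the 11 was called lower (15.6%) and of 1 higher (23.4%). In footprints 4 were called higher (36.4%) and 0 lower (22.1%).

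**Figure D4:**
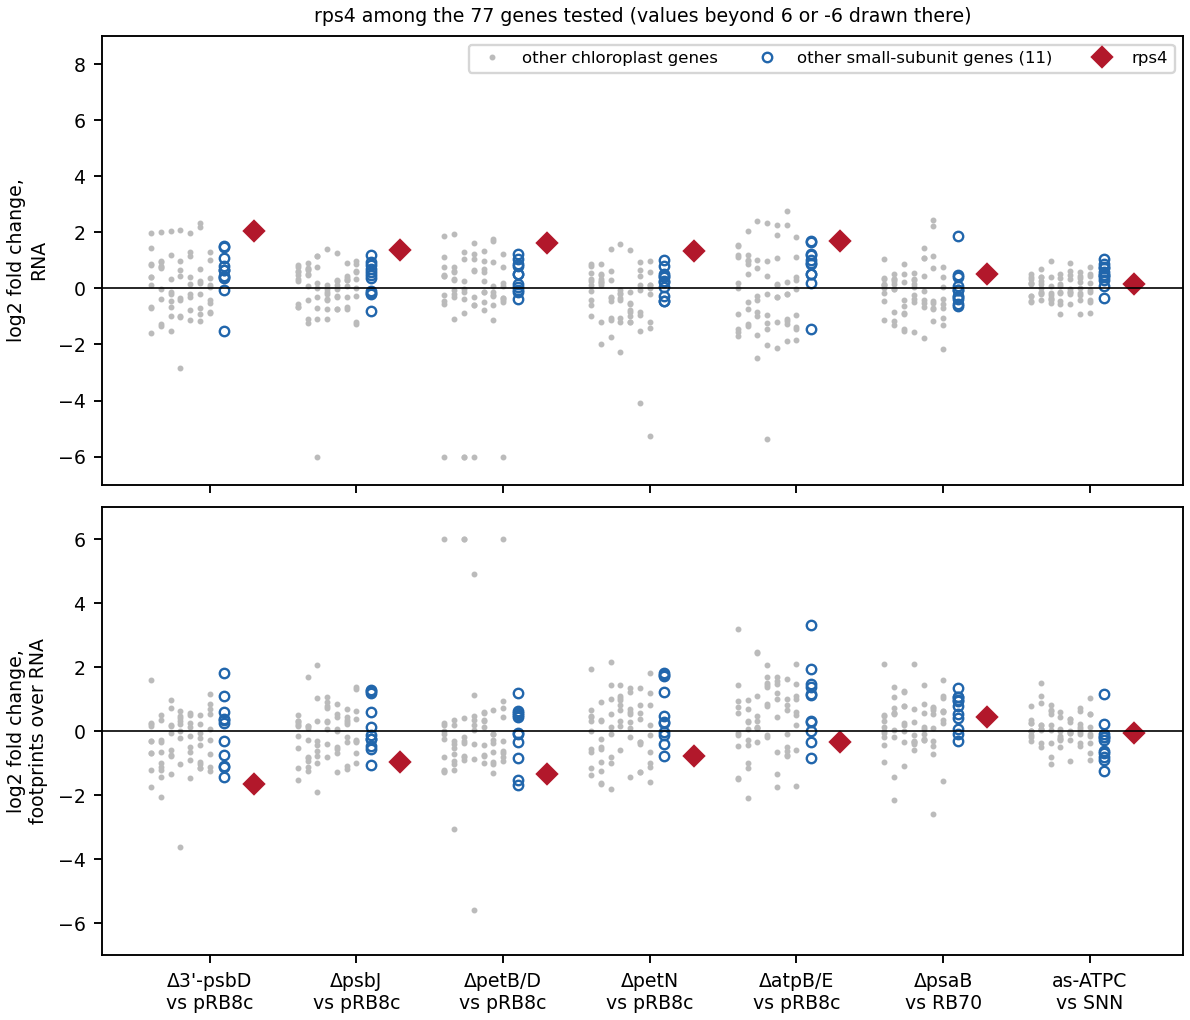
Log2 fold change in RNA (top) and in footprints over RNA (bottom) of *rps4* (diamonds), the 11 other small-subunit genes (circles) and the remaining genes tested (dots), each mutant over its control. *rps4* lies above the 11 others in RNA in Δ3’-*psbD* (2.05), Δ*petN* (1.34), Δ*petB/D* (1.63) and Δ*psbJ* (1.38), level with the highest of them in Δ*atpB/E* (1.68), and within their range in Δ*psaB* (0.51) and as-*ATPC* (0.17). The gene was chosen by such changes, so its high place in RNA is no separate result.

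Of 9 genes for large-subunit proteins, 6 were called higher in RNA in Δ3’-*psbD* (40.3% of all genes), 2 in Δ*psbJ* (33.8%), 5 in Δ*petB/D* (41.6%), 2 in Δ*petN* (26.0%) and 6 in Δ*atpB/E* (41.6%). Called lower were *rpl16* in Δ*petB/D* (−0.46, SE 0.15, edgeR adjusted p = 0.00933) and *rpl32* in Δ*petN* (−0.52, SE 0.15, adjusted p = 0.00799). Of all genes, 20.8% and 42.9% were called lower in RNA in these mutants. *rpl33* had the largest rise in 4 of these 5, for instance 5.04-fold in Δ3’-*psbD* (edgeR adjusted p = 1.72e-14, log2 change 2.33, SE 0.22). All 4 genes of the plastid-encoded RNA polymerase were called higher in RNA in each of the 5 mutants, where 26.0% to 41.6% of all genes were. *rpoC1* RNA rose 4.21-fold in Δ3’-*psbD* (2.07, SE 0.19, edgeR adjusted p = 1.12e-14), beside 4.13-fold for *rps4*, and *rpoB* RNA rose 5.30-fold in Δ*atpB/E* (2.41, SE 0.25, adjusted p = 2.12e-05). In the control RB70 against pRB8c, 3 of the 4 were called higher in RNA too, where 36.4% of all genes were. The log2 change there was 4.25 for *rpoC1*, above its rise in Δ3’-*psbD*, 0.52 for *rpoA*, 0.47 for *rpoB* and −0.021 for *rpoC2*. The median efficiency change of the 4 was −0.16 in Δ3’-*psbD*, −0.80 in Δ*psbJ*, −0.086 in Δ*petB/D*, −0.22 in Δ*petN* and 1.33 in Δ*atpB/E*, beside −1.66, −0.96, −1.33, −0.78 and −0.35 for *rps4*. *rpoB* was called lower in efficiency in Δ*psbJ* (−1.89, SE 0.29, edgeR adjusted p = 0.000112; 16.9% of all genes were called lower) and in Δ*petN* (−1.81, SE 0.25, adjusted p = 1.53e-05; 22.1%), by more than the difference of *rps4* there. In Δ*atpB/E* 3 of the 4 were called higher in efficiency, against 36.4% of all genes, and *rpoB* was not among them.

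Of the 4 counted reading frames nearest to *rps4*, none had as large an RNA change upwards in the 5 mutants, by which *rps4* had been chosen. They are *psaA* (photosystem I core) and *ycf3* (photosystem I assembly) on one side, and *ndhJ* and *ndhK* (subunits of the NADH dehydrogenase-like complex) on the other. In Δ3’-*psbD*, where *rps4* RNA differed by 2.05 on the log2 scale, *psaA* RNA fell by 1.59 (SE 0.15, edgeR adjusted p = 1.83e-14) and *ycf3* RNA was at 0.042 (SE 0.17, adjusted p = 0.812). *ndhJ* and *ndhK* RNA rose by less than that of *rps4*, by 0.85 (SE 0.23, edgeR adjusted p = 0.000851) and 0.98 (SE 0.23, adjusted p = 0.000149). *psaA* fell and *ndhK* rose in Δ*psbJ* and Δ*atpB/E* as well, and *ndhJ* rose in Δ*atpB/E*, where its 1.19 and the 1.20 of *ndhK* stood beside 1.68 for *rps4*. In Δ*petN* only *ndhK* was called (0.47, SE 0.13, edgeR adjusted p = 0.00426), and in Δ*petB/D* only *psaA* (−0.55, SE 0.16, adjusted p = 0.00288). Of all genes, 26.0% to 41.6% were called higher and 20.8% to 42.9% lower in RNA in the 5 mutants. In efficiency *ndhJ* was lower than in pRB8c in all 5 mutants. Its log2 fold change was −1.74 in Δ3’-*psbD* (SE 0.26, edgeR adjusted p = 0.00132), −1.52 in Δ*psbJ* (SE 0.22, adjusted p = 0.000112) and −1.21 in Δ*petB/D* (SE 0.21, adjusted p = 0.000911). In Δ*petN* it was −1.36 (SE 0.19, edgeR adjusted p = 1.69e-05) and in Δ*atpB/E* −1.51 (SE 0.33, adjusted p = 0.000912). The other control lines were also below pRB8c in the efficiency of *ndhJ*, RB70 by −0.89 (SE 0.22, edgeR adjusted p = 0.00395) and SNN by −1.88 (SE 0.18, adjusted p = 5.18e-07). *ndhK* was called lower in efficiency in Δ*psbJ* (−0.85), Δ*petN* (−0.96) and Δ*atpB/E* (−1.15), and *ycf3* in Δ*petB/D* (−0.80) and Δ*petN* (−0.98). Of all genes, 10.4% were called lower in efficiency in Δ3’-*psbD*, 16.9% in Δ*psbJ*, 19.5% in Δ*petB/D*, 22.1% in Δ*petN* and 10.4% in Δ*atpB/E*. The control lines differed in RNA as well. RB70 was above pRB8c 7.20-fold for *ycf3* (2.85, SE 0.20, edgeR adjusted p = 1.31e-06), 18.98-fold for *rpoC1*, 6.87-fold for *rpl16* and 4.92-fold for *rps16*. The footprints of these 4 genes were not called, with log2 changes of −0.34, −0.0031, 0.49 and 0.20 in the same order. None of the 4 is among the reading frames without introns compared at the end of this text. For genes with introns the study counted RNA and footprints by different rules. Of all genes, 36.4% were called higher and 24.7% lower in RB70 RNA. What underlies these differences was not tested.

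Over the 10 line means of log2 (scaled CPM + 1), the RNA profiles most like that of *rps4* were those of *rpoB* (Pearson r = 0.92), *rpoC2* (r = 0.90) and *rps2* (r = 0.88). The windows of these 3 genes lie between 16242 and 27486 on the same strand, away from *rps4*. *rpoB* RNA averaged 1076 scaled CPM in pRB8c and 1074 in SNN, and 6776 in Δ*atpB/E*, so that its lowest and highest lines were nearly those of *rps4*. In footprints *rpl33*, a large-subunit gene (r = 0.74), and *rps14* (r = 0.72) came first. With library sizes alone these were 0.94 and 0.91, beside 0.95 for *rpoB* and 0.93 for *rps2* in RNA. The lines share their controls, scaling and growth conditions, and these correlations carry no p-value.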

How the data were processed

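The authors used STAR 2.7.1a, removing rRNA and tRNA reads, then mapping to the chloroplast genome and the remainder to the mitochondrial and nuclear genomes, and deposited raw counts per chloroplast reading frame (featureCounts) for 78 genes. Per the study's methods, the first 10 and last 30 nt of each frame were left out, and, for genes with introns (not *rps4*), RNA reads crossing an exon boundary by more than 52 bp. Footprints of genes with introns were counted in the last exon only. For those genes footprints and RNA therefore cover different parts of the reading frame. The deposited RNA-seq values are treated as estimated counts, since 94 values in 6 genes are not whole, and were rounded here. The deposited 60 RPKM columns were not used. Genes in the inverted repeat are counted in both copies. For use of the strand in counting, nothing was found stated.

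The libraries of each mutant and its control were fitted with edgeR 4.0.16 in R 4.3.3 (glmQLFit, glmQLFTest), with TMM factors per kind, on 77 genes with at least 10 counts in at least 3 libraries (*matK* failed). Efficiency was the interaction of kind and genotype over both kinds. The fits were tested on simulated data. Lists and members were chosen with earlier results of these data known. Named were all neighbours, the genes hit, the called member of a list with the largest change each way, and the 3 genes of highest r, of which 1 is not reported here. Between mutant and control, libraries of one number deviated together (r over 0.1 in every pair) only in the RNA of Δ3’-*psbD* (0.36, 0.36 and 0.64) and Δ*psaB* (0.35, 0.24 and 0.11). Within a line, the RNA and Ribo-seq library of one number did so in Δ3’-*psbD* (0.26, 0.42 and 0.37), Δ*psbJ*, Δ*petN*, Δ*psaB*, as-*ATPC* and SNN, and a block for that pairing was added after seeing the data. Alternatives were other scalings, filters and thresholds, DESeq2 1.42.0, 1 fit over all lines, a replicate block, the other control line and each library left out.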

Additional observations from a re-analysis of the deposited data

How the results depend on the processing

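Across the alternatives tried, *rps4* RNA stayed higher and its efficiency lower than in the control in each of the 5 mutants set against pRB8c, whereas the sign in footprints changed with the scale in Δ3’-*psbD*, Δ*petB/D* and Δ*atpB/E* and with the control in Δ*psbJ* and Δ*petB/D*, and stayed positive in Δ*petN* (0.051 to 1.29). Of the *rps4* changes recomputed under settings other than leaving out a library, 133 moved by less than the spread between replicates and 60 by more. The cause was not tested. With library sizes alone, the median RNA change over all tested genes was 1.08, 0.84, 0.54, 0.75 and 1.27 in the 5 mutants set against pRB8c. With TMM it was 0.35, 0.19, 0.16, −0.060 and 0.15. All values are log2 fold changes. With library sizes alone, RNA was at 2.75 in Δ3’-*psbD*, 2.03 in Δ*psbJ*, 2.004 in Δ*petB/D*, 2.16 in Δ*petN*, 2.88 in Δ*atpB/E* and 0.53 in as-*ATPC*; footprints were at 1.51 in Δ3’-*psbD*, 1.26 in Δ*petB/D*, 1.29 in Δ*petN*, 2.10 in Δ*atpB/E* and 1.73 in Δ*psaB*; and efficiency was at −1.24, −1.51, −0.74 and −0.78 in Δ3’-*psbD*, Δ*psbJ*, Δ*petB/D* and Δ*atpB/E*, 1.15 in Δ*psaB* and −0.41 in as-*ATPC*. With reads mapped to all 3 genomes, RNA was at 2.50, 2.01, 2.01 and 2.20 in the first 4 mutants and 0.43 in as-*ATPC*; footprints were at −0.81 in Δ3’-*psbD*, −0.28 in Δ*petB/D*, −1.73 in Δ*atpB/E* and 0.32 in Δ*psaB*; and efficiency was at −3.31, −1.61, −2.29, −1.76 and −3.75 in the 5 mutants, −0.067 in Δ*psaB* and −0.40 in as-*ATPC*. On the scale of all mapped reads, the median efficiency change over all tested genes was −1.86, −0.57, −1.23, −0.74 and −2.92 in the 5 mutants. It was −0.058 in Δ*psaB* and −0.33 in as-*ATPC*. DESeq2 size factors and the DESeq2 Wald test both gave 1.74 (Δ3’-*psbD* RNA), 1.38 (Δ*petB/D* RNA), 0.95 (Δ*atpB/E* footprints) and 0.10 (as-*ATPC* RNA). With all lines in 1 fit these were 1.73, 1.39 and 0.94 for the mutants set against pRB8c, and efficiency was −1.26 in Δ3’-*psbD*, −1.01 in Δ*petB/D* and −0.97 in Δ*atpB/E*. Against the other control line, RNA was 1.26, 0.51, 0.50 and 0.66 in the first 4 mutants and 1.59 in Δ*psaB*, footprints were −0.021 in Δ*psbJ*, −0.13 in Δ*petB/D*, 0.051 in Δ*petN* and 0.85 in Δ*atpB/E*, and efficiency was −1.09, −0.53 and −0.63 in the first 3 and −0.33 in Δ*psaB*.

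When each library was left out in turn, the RNA changes spanned 1.84 to 2.18 in Δ3’-*psbD*, 1.18 to 1.54 in Δ*psbJ*, 1.41 to 1.74 in Δ*petB/D*, 1.26 to 1.56 in Δ*petN*, 1.48 to 1.83 in Δ*atpB/E*, 0.41 to 0.71 in Δ*psaB* and 0.15 to 0.27 in as-*ATPC*. The footprint changes spanned 0.19 to 0.68 in Δ3’-*psbD*, 0.33 to 0.47 in Δ*psbJ*, 0.17 to 0.39 in Δ*petB/D*, 0.54 to 0.71 in Δ*petN*, 1.01 to 1.40 in Δ*atpB/E*, 0.60 to 1.15 in Δ*psaB* and 0.03 to 0.12 in as-*ATPC*. The efficiency changes spanned −1.80 to −1.38 in Δ3’-*psbD*, −1.17 to −0.72 in Δ*psbJ*, −1.53 to −1.02 in Δ*petB/D*, −0.996 to −0.55 in Δ*petN*, −0.72 to −0.17 in Δ*atpB/E*, 0.06 to 0.74 in Δ*psaB* and −0.16 to −0.03 in as-*ATPC*. Of the counts of small-subunit genes called, 188 stayed within 1.5 times when a library was left out and 64 did not. Under the other settings these were 307 and 121.

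With the replicate number as a block, *rps4* RNA was at 2.03 in Δ3’-*psbD* and 0.50 in Δ*psaB*, where r was over 0.1 in every pair, and its efficiency was at −1.68 in Δ3’-*psbD*. Whether the numbers pair the plants of mutant and control is not in the labels, and such a cut cannot decide it. Under that block the small-subunit genes called higher in footprints were 3 in Δ*petB/D*, 2 in Δ*psaB* and 2 in as-*ATPC*, against 1, 0 and 4 without it. In footprints and in the RNA of the other mutants the mutant and control libraries did not reach that r in every pair. In efficiency the genes called lower in Δ*petN* were 0 with that block, against 1 without it. With a block that pairs the RNA and Ribo-seq library of one line and number, chosen after seeing the data, *rps4* efficiency was at −1.68, −0.98, −1.35, −0.79 and −0.35 in the 5 mutants, 0.43 in Δ*psaB* and −0.072 in as-*ATPC*, and the small-subunit genes called in Δ3’-*psbD* were 2 higher and 2 lower, against 1 and 3; no other such count changed.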

Other observations

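In the deposited tables the Ribo-seq window of *rps4* leaves out 30 nt at the start codon and 10 nt at the stop codon, measured against the ends of the gene in the RefSeq annotation of tobacco. The same held for all 41 minus-strand reading frames without introns that were compared, *rps4* included, whereas in all 21 plus-strand frames 10 nt were left out at the start and 30 nt at the end. The margins named in the study's methods match the plus strand. The same windows were used for every line, so both sides of each comparison count the same bases.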
